A study of Mus musculus with 11 samples.

Results

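The comparison of aged muscle given young serum with aged muscle given saline covered 12977 of the 18269 genes in the deposited table, those with at least 1 CPM (read counts scaled to a fixed library total) in at least 3 of 8 libraries. The libraries were 4 of 4 young serum (replicates 1, 2, 3 and 4) and 4 of 4 saline (replicates 2, 3, 4 and 6), 8 of the 11 in the series. All came from the tibialis anterior, the main muscle of the front of the shin, of C57BL/6 mice aged 21 to 24 months, and the protocol refers to an animal injury model. No transgene or deletion is given for either group, and the labels separate them by the injection alone: saline, or young serum. The other 3 libraries, from mice given young serum depleted of extracellular vesicles (EV-depleted serum), entered only the estimate of the spread in the main fit. They were also among the libraries used to scale, weight or block samples in the alternatives, and to remove the length trend described below. Dose, number and timing of injections, the kind of injury and the hour of collection are not given in the labels. Nor do they tie each library to an animal of its own, so the p-values reflect how far these samples spread, part of which may be technical.

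Skeletal muscle repairs itself from satellite cells, resident stem cells that divide after injury and fuse into fibres. This repair slows with age, and exposure of old animals to young blood has been studied as a way to restore it. Serum carries hormones, growth factors and extracellular vesicles, the membrane particles that ferry RNA and protein between cells. The tibialis anterior is made mostly of fast fibres, which run on glycolysis, buffer calcium with parvalbumin and contract with fast isoforms of myosin, troponin and the calcium pump.

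The fast fibre markers were high in every library, as the labelled tissue requires. Ckm, the muscle creatine kinase, ranged over the 8 libraries from 26017 to 39378 CPM and Myh4, the fastest myosin heavy chain, from 29701 to 69181 CPM. Depth, read from the steps of low values, was between 36400000 and 42200000 reads per library over all 11. Saline replicates 4 and 6 stood apart. Saline replicate 4 held the highest of the 8 values for 40.2% of genes and saline replicate 6 the lowest for 37.3%, and 84.0% of genes varied more among saline than among young serum libraries. The epidermal keratin Krt5 was at 34.5 CPM in saline replicate 4 and 10.2 CPM in saline replicate 6, and at 0.102 CPM or lower in the other 6 libraries. Without these 2 libraries, 59 of 174 genes described below had a difference that moved by over 1.5 times or changed sign, 51 of them toward 0. Medians of gene lists that moved as much and lay more than 0.1 from 0 are given both ways.

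No gene passed the threshold. With limma, 0 of 12977 genes had an adjusted p under 0.05 (smallest 0.0758), a background of 0.0% in either direction, while 1379 genes were higher and 1501 lower at an unadjusted p under 0.05. With array weights, which count variable libraries less and whose estimate did not fully converge, limma called 3521 genes, and without saline replicate 2 it called 265. With quantile normalisation the unadjusted counts were 2156 higher against 1390 lower. "Higher" and "lower" below therefore describe values and not called changes. A second, descriptive count was kept: genes whose 4 young serum values all lay above, or all below, the 4 saline values. These numbered 799 higher (6.16% of genes tested) and 792 lower (6.10%), the background for every count of genes without overlap below. Differences are given on the log2(CPM + 1) scale, young serum minus saline, which understates the change of genes at a few CPM. Their median was -0.02, with the 5th percentile at -0.66 and the 95th at 0.55.

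**Figure D1:**
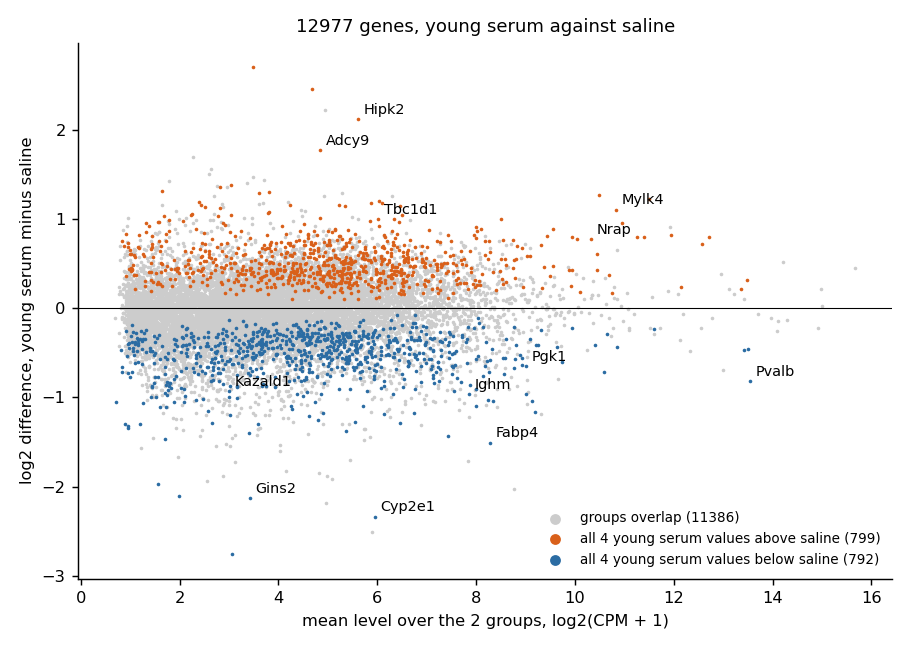
Each point is 1 of 12977 genes, with its mean level on the x axis (log2(CPM + 1)) and its log2 difference, young serum minus saline, on the y axis. Orange points (799) have all 4 young serum values above saline and blue points (792) all 4 below; they lie across the whole range of levels, Hipk2 near the top and Gins2 and Cyp2e1 near the bottom.

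The filter itself set some members. Of the 12977 genes, 70 reached 1 CPM in saline libraries only and 22 in young serum libraries only, so a difference was built into their choice. The library that decided the filter, the one ranked 3 by level, stood at 1.002 CPM for Slc4a10, just inside, and at 0.9989 CPM for Wdr90, just outside.

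The direction of a gene's difference followed the length of its transcript. Genes were split into 10 equal bins by the summed length of their annotated exons. In the shortest bin, up to 1.4 kb, the median log2 difference was -0.34, with 32 genes higher and 238 lower without overlap (2.51% and 18.6%). In the longest bin, from 9.8 kb upward, it was 0.29, with 214 higher and 4 lower (16.8% and 0.313%). The medians of the bins between climbed in order: -0.26, -0.16, -0.10, -0.05, 0.02, 0.07, 0.10 and 0.18. Bins by genomic span, introns included, ran from -0.25 to 0.22.

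The slope was present in single libraries. The median of the longest bin minus that of the shortest, each gene set against its mean over the 8 libraries, was 0.09, -0.32, 0.01 and -0.92 in saline replicates 2, 3, 4 and 6. In young serum replicates 1, 2, 3 and 4 it was 0.29, 0.44, 0.13 and 0.43. The groups did not overlap on this measure, and saline replicate 6 lay furthest from the rest. Between groups the gap was 0.63, and 0.44 without saline replicates 4 and 6. Libraries given EV-depleted serum stood on either side, at 0.15, -0.24 and 0.63. What sets this gradient was not tested.

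**Figure D2:**
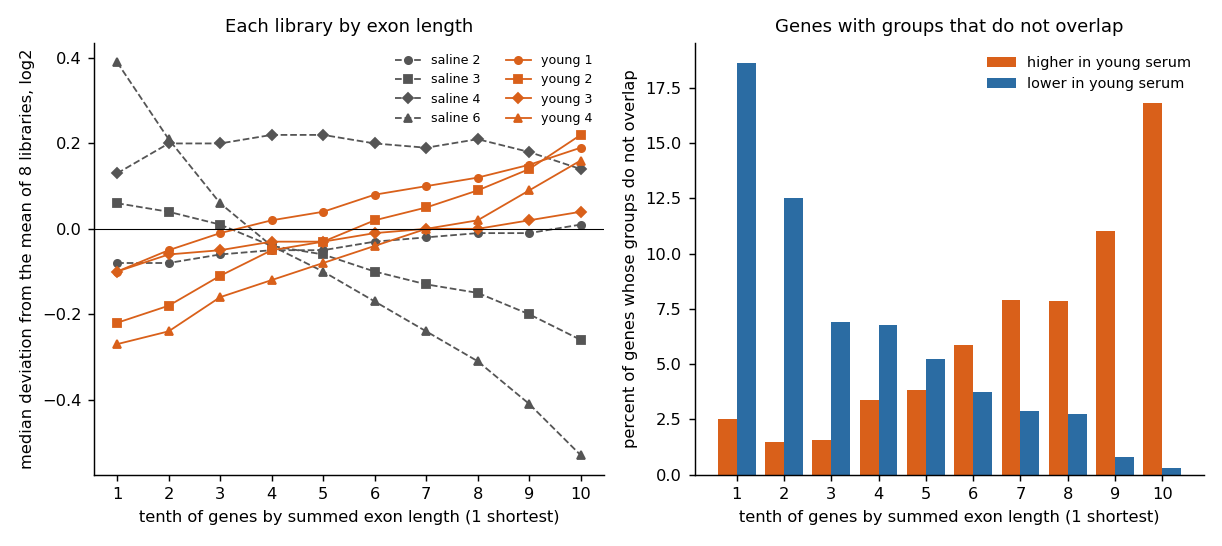
Left, the median log2 deviation of each library from the mean of 8 libraries (y axis) in 10 bins of genes by summed exon length (x axis, 1 shortest); saline dashed grey, young serum solid orange. Right, the percent of genes in each bin whose groups do not overlap. Young serum lines climb from left to right and the line of saline replicate 6 descends, while genes lower in young serum shrink from 18.6% to 0.313% and higher ones grow from 2.51% to 16.8%.

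Because gene families differ in exon length, this trend was also removed, library by library, by a smooth curve on exon length, an alternative added after the data were seen. Values with it removed are given for most of the families below, in the text or in the plot of list medians. It could be computed for 12762 genes, called 0 of them (smallest adjusted p 0.145, limma) and left 716 higher and 656 lower without overlap. Of the 793 higher genes with a known length, 454 (57.3%) were still higher without overlap, and of the 773 lower genes 354 (45.8%) were still lower.

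Among the genes with the largest differences, Hipk2 and Adcy9 led those higher in young serum. Hipk2 encodes a nuclear serine/threonine kinase; it was measured at 34.8, 12.5, 23.7 and 5.89 CPM in saline replicates 2, 3, 4 and 6, and at 84.9, 102, 39.1 and 81.4 CPM in young serum replicates 1 to 4. All young serum values exceeded all saline values, with young serum replicate 3 nearest to saline, and the log2 difference was 2.12 ± 0.54 (SE; limma adjusted p = 0.177). Adcy9, an adenylyl cyclase that makes cyclic AMP, was at 28.2, 8.89, 16.4 and 3.34 CPM in saline against 44.9, 46.8, 29.2 and 44.0 CPM in young serum, a difference of 1.77 ± 0.50. Pde4d, which degrades cyclic AMP, was higher as well (1.18 ± 0.28), at 43.6 ± 24.4 CPM in saline against 91.3 ± 10 CPM in young serum (SD, n = 4 each). For all 3, saline replicate 6 held the lowest value.

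The rest of the 12 largest differences upward included long structural genes. Syne1, which encodes the nuclear envelope spectrin-repeat protein nesprin-1 and has 40.5 kb of exons, differed by 1.21, and by 0.60 with the length trend removed. Dmd, for dystrophin, the protein that ties the cytoskeleton to the sarcolemma and is lost in Duchenne dystrophy, differed by 1.15 and by 0.67 with the trend removed. The dipeptidase gene Pm20d2 has only 1.83 kb of exons and differed by 1.38, and by 1.60 with the trend removed. Lrch3 (1.29), the filamin-binding Filip1 (1.18), Ankhd1 (1.16), the deubiquitinase Usp34 (1.16) and the zinc finger gene Zbtb37 (1.13) were also on the list. Lrch3 overlaps exons of Iqcg on the other strand, and Iqcg ran the other way, with 38.5 CPM in saline replicate 6 against 3.96 to 6.66 CPM in young serum; the strand setting of the authors' counting is not stated.

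The steadiest differences upward, by unadjusted p, were smaller in size. Nrap, whose product binds actin in growing myofibrils and at the myotendinous junction, stood at 1062, 995, 796 and 958 CPM in saline against 1598, 1545, 1583 and 1762 CPM in young serum. Neither group spread far, and the difference was 0.77 ± 0.11 (adjusted p = 0.146), or 0.69 with the length trend removed. Tbc1d1, a Rab GTPase-activating protein through which insulin and exercise release glucose transporters to the muscle surface, was at 49.4, 43.6, 39.5 and 36.05 CPM in saline against 96.8, 69.5, 74.7 and 102 CPM in young serum, a difference of 1.0 ± 0.19. Tob2, of the antiproliferative BTG/Tob family, was at 60.2, 49.1, 71.2 and 34.5 CPM against 104, 124, 98.3 and 94.5 CPM (1.0 ± 0.19). The potassium channel Kcnc1 (0.71), Uaca (0.55), the ubiquitin ligase Rnf157 (0.62), the palmitoyltransferase Zdhhc5 (0.63) and Zfp651 (0.50) followed. With the trend removed these 8 genes, Nrap included, lay between 0.35, for Zfp651, and 0.87, for Tob2, and their groups did not overlap.

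Among the 12 largest differences downward, Gins2 had the smallest unadjusted p (0.000148, limma). It encodes a subunit of the GINS complex, part of the helicase that opens DNA for replication, and stood at 11.6, 19.2, 18.0 and 16.0 CPM in saline against 3.83, 2.30, 6.18 and 0.951 CPM in young serum. The difference was -2.13 ± 0.39 (adjusted p = 0.177), and -2.12 with the length trend removed. Exons of Gins2 overlap those of Gse1 on the other strand, and Gse1 was at 43.1, 21.7, 28.6 and 5.63 CPM in saline against 48.3, 56.3, 38.9 and 60.8 CPM in young serum. Among the young serum libraries the order of Gins2 was the reverse of that of Gse1, and so it was among the saline libraries other than replicate 6. Saline replicate 6 had the lowest Gse1 but not the highest Gins2. Reads of the 2 genes cannot be told apart without strand. Gins1, another subunit, differed by only -0.26.

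Several others with the largest differences downward rested on saline replicates 4 or 6. Cyp2e1, a cytochrome P450 abundant in liver and fat, was at 379 CPM in saline replicate 4, 21.0 to 27.3 CPM in the other saline libraries and 4.59 to 15.8 CPM in young serum (-2.33, and -1.41 without saline replicates 4 and 6). Fabp4, the fatty acid carrier of adipocytes, was at 1543 CPM in saline replicate 4, 125 to 256 CPM in the rest of saline and 71.4 to 123 CPM in young serum (-1.51, and -0.42 without the 2 libraries). Rpl13a and Rps24, both ribosomal protein genes, and Cops9, of the COP9 signalosome, peaked in saline replicate 6, at 2382, 799 and 294 CPM. The list also held the ligand gene Gdf1 (-1.40), which shares exons with Cers1, the mitochondrial cholesterol-binding protein gene Tspo (-1.27), the secreted Retnla (-1.2), the platelet chemokine Pf4 (-1.2), the peroxidase Gpx1 (-1.17) and the mitochondrial carrier Ucp2 (-1.13). Without saline replicates 4 and 6 these 11 genes lay between -1.42, for Gdf1, and -0.33, for Rpl13a. For Retnla the nearest values of the 2 groups both round to 17.9 CPM. Cers1, which shares exons with Gdf1 on the same strand, ran the other way, at 27.7 to 39.1 CPM in saline and 37.7 to 46.5 CPM in young serum. How the authors' counting split reads between Gdf1 and Cers1 is not given.

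The steadiest differences downward were of other kinds. Pgk1, the glycolytic phosphoglycerate kinase, stood at 625, 704, 579 and 618 CPM in saline against 415, 363, 442 and 387 CPM in young serum (-0.65 ± 0.11, adjusted p = 0.177). Kazald1, a secreted protein with an insulin-like growth factor binding domain, was at 9.50, 11.5, 7.55 and 9.65 CPM against 4.23, 3.98, 5.21 and 4.65 CPM (-0.93 ± 0.15, adjusted p = 0.173). Both kept separate groups with the trend removed, at -0.48 and -0.69. The peroxiredoxin-like Prxl2b (-0.64), the lysosomal nuclease Dnase2a (-0.85), Cmtm7 (-0.62), Ptges3l (-0.63) and the actin regulator Vasp (-0.61) completed this group.

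**Figure D3:**
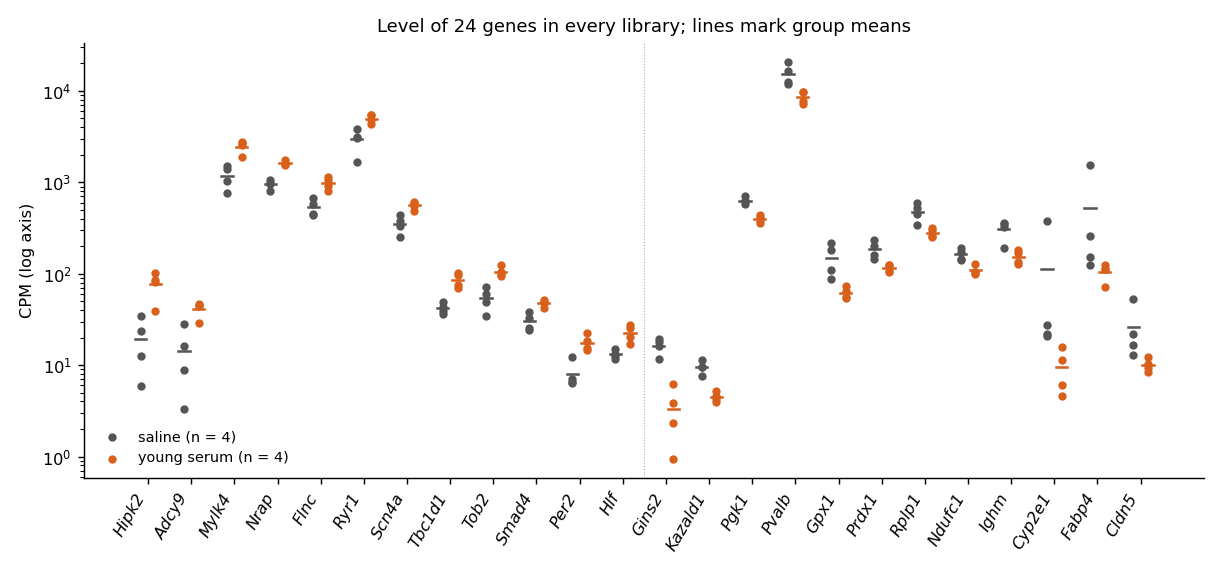
CPM (log axis) of 24 genes in the 4 saline (grey) and 4 young serum (orange) libraries, with short lines at the group means; genes left of the dotted line were higher in young serum and those right of it lower. The groups are apart for every gene shown, and 1 saline library lies far above the rest for Cyp2e1 and Fabp4.

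Genes of the contractile apparatus were listed by the part of the sarcomere they build. Of 9 genes of the giant scaffold and M band, proteins that span or crosslink the sarcomere, 9 had a positive difference, with 5 higher and 0 lower without overlap and a median of 0.55, against -0.02 over all genes. Their scores, the mean deviation from the 8-library average, were 0.12, -0.21, -0.29 and -0.72 in saline and 0.21 to 0.37 in young serum. Speg, a striated muscle kinase found at the triads, stood at 438, 358, 313 and 190.4 CPM in saline against 499, 543, 475 and 608 CPM in young serum (0.76), and Myo18b differed by 0.55 and Myom1, for myomesin, by 0.37. Ttn, for titin, ranged from 2157 CPM, in saline replicate 6, to 6685 CPM in saline and from 6773 to 9562 CPM in young serum (0.80). These are among the longest transcripts, with a median of 10.7 kb of exons. With the trend removed the list median was 0.13, with 1 higher and 0 lower without overlap. Ttn was then at -0.03, and Speg at 0.46 with overlapping groups. Without saline replicates 4 and 6 the list median was 0.34.

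Z disc and costamere genes, which anchor the filaments and the membrane, counted 8 higher and 0 lower of 32, with a median of 0.15. With the trend removed they counted 5 and 0 (median 0.19). Flnc, for filamin C, a crosslinker recruited to damaged myofibrils, was at 666, 573, 448 and 435 CPM in saline against 1048, 919, 803 and 1150 CPM in young serum (0.89, and 0.67 with the trend removed). Xirp1, which marks sites of myofibril strain and repair, was at 83.4 to 110.2 CPM in saline against 124.5 to 165 CPM in young serum (0.56). Synpo2 differed by 0.46. For these 3 genes and Nrap, every young serum value exceeded every saline value.

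Of the thick filament genes, 2 of 17 were higher and 0 lower, both of them myosin light chain kinases. Mylk4 stood at 1514, 1026, 1406 and 756 CPM in saline against 2740, 2551, 1877 and 2693 CPM in young serum (1.10 ± 0.27), and Mylk2 differed by 0.43. The groups of Mylk2 all but touched, at 847.7 CPM in the highest saline library and 848.8 CPM in the lowest young serum library. The fast myosin Myh4 differed by 0.45 with overlapping groups, Myh1 by 0.66 and Myh2 by 0.34, and the slow myosin Myh7 ran from 43.2 to 944 CPM in saline and from 22.04 to 523 CPM in young serum (0.22). Thin filament genes, with a median of 2.20 kb of exons, counted 0 higher and 2 lower of 17: the fast troponins Tnnc2 (-0.45) and Tnni2 (-0.47). Their list median was -0.35, -0.16 with the trend removed and 0.03 without saline replicates 4 and 6. With the trend removed 0 of the 17 were higher and 0 lower without overlap.

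Sarcolemma channel genes had a positive difference in 16 of 22 members. They counted 5 higher and 0 lower of 22 (median 0.24), and 3 and 0 with the trend removed (median 0.22). Scn4a, the sodium channel that carries the action potential, was at 442, 334, 379 and 251 CPM in saline against 548, 598, 489 and 607 CPM in young serum (0.70 ± 0.18), Cacna1s, the voltage sensor of contraction, differed by 0.43 and Kcna7 by 0.47. All 4 young serum scores, 0.10 to 0.13, exceeded the saline scores, -0.33 to 0.07.

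Calcium release and uptake counted 2 higher and 2 lower of 28, with a median of 0.02. Ryr1, the calcium release channel, was at 3878, 3137, 3088 and 1684 CPM in saline against 4790, 5394, 4373 and 5398 CPM in young serum (0.82), and the calcium sensor Stim1 differed by 0.40. In the opposite direction, Pvalb, the parvalbumin of fast fibres, was at 12460, 16601, 11780 and 20475 CPM in saline against 9659, 7110, 9656 and 7812 CPM in young serum (-0.82 ± 0.20). Mrln, for the micropeptide myoregulin that restrains the calcium pump, differed by -0.71, and the pump gene Atp2a1 by 0.21 with overlapping groups. Ryr1 has 21.8 kb of exons and Pvalb 1.04 kb; with the trend removed they stood at 0.37 and -0.53, still in separate groups.

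Innervation genes went both ways. Musk, the receptor kinase that assembles the junction, was at 17.5, 7.95, 8.38 and 7.45 CPM in saline against 24.7, 26.5, 15.8 and 29.3 CPM in young serum (1.19 ± 0.31, limma adjusted p = 0.177, and 1.23 with the trend removed). Its groups crossed only at saline replicate 2 and young serum replicate 3. The acetylcholine receptor subunit Chrna1 (-0.45) and the deacetylase Hdac4 (0.49) had overlapping groups. The neuromuscular junction list counted 1 higher, Nes (0.33), and 2 lower of 18, among them Ufsp1 (-0.36), and the denervation list 1 higher, Ncam1 (0.41), and 1 lower of 15, with medians of -0.08 and 0.08.

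Complex I and mitochondrial ribosome genes were mostly lower. Of 37 complex I genes, which encode the first enzyme of the respiratory chain, 37 had a negative difference, with 0 higher and 15 lower without overlap and a median of -0.54. Ndufc1, an accessory subunit, was at 144.5, 173, 140.0 and 193 CPM in saline against 99.3, 104, 127 and 104 CPM in young serum (-0.57), and Ndufa5 and Ndufb7 differed by -0.53 and -0.72. With the trend removed the median was -0.30 and 2 genes were lower without overlap. Saline replicate 6 had a score of 0.95, the other saline libraries -0.07 to 0.15 and the young serum libraries -0.42 to -0.07. The complex I scores of the groups were thus not apart. Without saline replicates 4 and 6 the median was -0.31. The mitochondrial ribosome counted 0 higher and 27 lower of 83 (median -0.36), among them Mrpl42 (-0.41), Mrps18c (-0.53) and Mrps25 (-0.38, overlapping Nr2c2 on the other strand), and 7 lower with the trend removed (median -0.21). Its median was -0.20 without saline replicates 4 and 6. Mitochondrial ribosome scores overlapped between the groups, the lowest in saline being -0.06 and the highest in young serum -0.05.

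Glycolysis counted 1 higher and 4 lower of 22, with a median of -0.22, and 1 and 2 with the trend removed (median -0.13). Its median was -0.11 without saline replicates 4 and 6. Besides Pgk1, Gapdh was at 1329, 1902, 1419 and 1532 CPM in saline against 1247, 1049, 1193 and 1120 CPM in young serum (-0.41), and the muscle isoform Pgam2 differed by -0.43. Glycogen genes had a median of 0.18, and 0.12 without those libraries, with glycogen synthase, Gys1, the 1 of 19 that was higher without overlap (0.24). Acacb, the acetyl-CoA carboxylase that limits fatty acid entry into mitochondria, was at 290.5, 222, 265 and 199.8 CPM in saline against 352, 398, 348 and 402 CPM in young serum (0.63 ± 0.14). It was the 1 of 29 lipid uptake and storage genes that was higher without overlap, with 2 lower. Of the 29, 26 had a negative difference, and the median was -0.5, or 0.08 without saline replicates 4 and 6. Among mitochondrial regulators 3 of 23 were higher, including the corepressors Ncor1 (0.69) and Nrip1 (0.77), while the coactivator Ppargc1a had overlapping groups (0.10). With the trend removed this list counted 3 higher and 2 lower. Ncor1 then stood at 0.39 with overlapping groups, and Nrip1 at 0.50 without overlap. The sterol reductase Tm7sf2 was at 6.61 to 7.66 CPM in saline against 3.73 to 4.85 CPM in young serum (-0.62).

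Ribosomal protein and proteasome genes were mostly lower. Of 84 cytosolic ribosomal protein genes, 83 had a negative difference, with 0 higher and 17 lower without overlap and a median of -0.63. Rplp1 was at 339, 448, 524 and 592 CPM in saline against 299.7, 249, 317 and 260.5 CPM in young serum (-0.73), and Rpsa (-0.67), Rpl22l1 (-0.55) and Rpl6l (-0.57) followed. The list scores were -0.28, 0.17, 0.32 and 1.0 in saline and -0.41 to -0.20 in young serum, so saline replicate 2 lay among the young serum libraries. The median was -0.38 with the trend removed, where 16 were lower, and -0.27 without saline replicates 4 and 6. Ribosomal protein genes have many processed copies in the genome, and how the authors' counting split reads among them is not given.

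Translation factors went both ways, 8 higher and 5 lower of 66 with a median of -0.03. Eif4ebp2, a repressor of cap-dependent translation, differed by 0.45 and Eif3c by 0.23, while Eef1b2 differed by -0.75 (-0.36 without saline replicates 4 and 6) and Eif5a by -0.34. The proteasome counted 0 higher and 10 lower of 49, among them Psmc5 (-0.34) and the assembly chaperone Psmg3 (-0.63). With the trend removed the proteasome counts were 0 and 4. The proteasome median was -0.27, -0.15 with the trend removed and -0.17 without saline replicates 4 and 6. Among atrophy genes 1 of 23 was higher, the transcription factor Foxo4 (0.31). The ubiquitin ligase Fbxo32 (atrogin-1) was at 382, 308, 279.7 and 196 CPM in saline against 467, 321, 414 and 565 CPM in young serum (0.61, groups overlapping), and its partner in atrophy Trim63 differed by 0.08.

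Antioxidant genes counted 0 higher and 9 lower of 29, with a median of -0.32, and 0 and 5 with the trend removed (median -0.16). The median was -0.12 without saline replicates 4 and 6. Gpx1, a glutathione peroxidase, was at 87.8, 111, 184 and 217 CPM in saline against 73.5, 56.3, 64.7 and 54.5 CPM in young serum. Prdx1, a peroxiredoxin, was at 159, 145, 199 and 235 CPM against 124, 108, 124 and 103 CPM (-0.66 ± 0.15), the thioredoxin Txn1 differed by -0.57 and the haem oxygenase Hmox1 by -0.59. Without those libraries Gpx1 stood at -0.66 and Prdx1 at -0.41. Heat shock genes had a median of -0.01, with the muscle small heat shock protein Hspb3 at -0.41.

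Growth signalling genes of the IGF and insulin list had mostly positive differences, 24 against 6 negative, but the list scores overlapped between the groups. The list of IGF and insulin genes, which couple nutrients and growth factors to protein synthesis, counted 8 higher and 0 lower of 30, with a median of 0.34, and 5 and 0 with the trend removed (median 0.20). Mtor, the growth kinase, was at 34.8, 26.9, 30.6 and 22.1 CPM in saline against 40.2, 48.0, 36.5 and 45.7 CPM in young serum (0.57 ± 0.16). Its inhibitors Tsc1 and Tsc2 were higher too: Tsc1 was at 44.8, 33.2, 34.6 and 21.3 CPM against 60.3, 61.8, 49.98 and 62.1 CPM (0.83), and Tsc2 differed by 0.40. The ligand gene Igf1 was at 34.1 CPM in saline replicate 4, 20.6 CPM in young serum replicate 1 and 7.57 to 9.14 CPM in the other 6 libraries (-0.13).

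In the TGF-beta, activin and BMP list, whose myostatin branch restrains muscle mass, 5 were higher and 1 lower of 36 (median 0.21, and 0.13 with the trend removed). The highest list score was in saline replicate 4, at 0.28, against 0.24 or less in young serum. Smad4, the common signal carrier of the family, was at 37.8, 25.2, 33.1 and 24.1 CPM in saline against 47.9, 52.1, 42.0 and 49.6 CPM in young serum (0.67 ± 0.16, and 0.71 with the trend removed). The receptors Acvr1b and Acvr1 differed by 0.52 and 0.45. Mstn, for myostatin, was at 50.9, 33.0, 33.8 and 25.1 CPM against 65.9, 61.5, 45.1 and 74.7 CPM (0.80, and 0.92 with the trend removed), its groups crossing only at saline replicate 2 and young serum replicate 3. Tgfb1 was the member lower without overlap (-0.66), at 20.7 CPM in saline replicate 4, 7.13 to 8.51 CPM in the rest of saline and 5.05 to 6.58 CPM in young serum, and it was at -0.29 without saline replicates 4 and 6. Gdf11 (0.37) and the antagonist Fst (-0.38) had overlapping groups.

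Wnt and Hippo genes counted 4 higher and 0 lower of 31. They were the transcription factor Tead1 (0.76), the kinase Gsk3b (0.53), the scaffold Apc (0.65) and the ligand Wnt9a (0.33), and the list median was 0.04. All 4 were higher in every young serum library than in any saline library.

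Clock genes form a loop in which BMAL1 and CLOCK activate the Per and Cry genes through E-boxes, and the PER and CRY proteins repress BMAL1 and CLOCK in turn; output factors such as HLF and TEF act through D-boxes. Of 18 clock genes, 5 were higher and 0 lower, with a median of 0.34, and 3 and 0 with the trend removed (median 0.32). The list scores were 0.03, -0.13, -0.22 and -0.42 in saline and 0.22, 0.24, 0.06 and 0.22 in young serum, and the list median was 0.18 without saline replicates 4 and 6. Per2 was at 12.3, 7.11, 6.51 and 6.36 CPM in saline against 15.3, 22.4, 14.6 and 18.3 CPM in young serum (1.07 ± 0.23). Hlf was at 15.0, 11.6, 12.6 and 13.2 CPM against 20.4, 25.8, 16.9 and 27.7 CPM (0.73 ± 0.17). Per1 was at 30.7, 17.6, 21.2 and 22.9 CPM against 34.5, 53.9, 52.7 and 30.7 CPM (0.85), its groups all but touching.

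The other 2 of the 5, Per3 (0.69) and the REV-ERB gene Nr1d2 (0.63), fall outside the naming rule and are given because the count is small; Arntl, Nr1d1 and Tef were also added after their values were seen. Arntl, which encodes BMAL1, and Nr1d1, which its product activates, had negative differences of -0.30 and -0.34 with overlapping groups; Dbp, an output factor, differed by 0.34 and Rora by 0.84, both with overlap. The hour of collection is not given, and its part in these values was not tested.

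Promoters of the clock genes are shown because 15 of the 18 clock genes had a positive difference, most of them with overlapping groups, and these motifs are the ones the loop acts through. RefSeq promoters of GRCm38.p6, from 250 bases before to 50 after a start, were matched to 9636 of the tested genes (12391 promoters) and to 15 of the 18 clock genes (20 promoters). An E-box, CACGTG on either strand, was in 6 of the 20 (30.0%) and in 10% of all promoters. A D-box, TTATGTAA or TTACGTAA on either strand, was in 1 of the 20 (5.0%) and in 0.654% of all. The E-box promoters were those of Ciart, Bhlhe41, Cry1, Per1 and Tef, Tef in both of its promoters. Of the 5 clock genes higher without overlap, Per1 had an E-box and Per3 a D-box. Hlf and Nr1d2 had neither, and no promoter was matched to Per2. Other motifs were looked for as well, and CCAAT, on either strand, was in 16 of the 20 (80.0%) and in 37.3% of all. A match is a description of the letters and not a bound site. The 250 bases before the start are printed below, 5′ to 3′ on the strand of the gene, with the motif in capitals, for Per1 (chr11:69098699-69098948, plus strand), Tef (chr15:81802423-81802672, plus strand) and Per3 (chr4:151044666-151044915, minus strand).
Per1: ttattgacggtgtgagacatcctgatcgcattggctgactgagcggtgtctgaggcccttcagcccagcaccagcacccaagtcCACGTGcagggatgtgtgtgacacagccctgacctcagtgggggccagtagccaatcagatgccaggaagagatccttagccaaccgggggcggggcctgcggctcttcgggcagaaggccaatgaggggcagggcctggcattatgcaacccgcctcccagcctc
Tef: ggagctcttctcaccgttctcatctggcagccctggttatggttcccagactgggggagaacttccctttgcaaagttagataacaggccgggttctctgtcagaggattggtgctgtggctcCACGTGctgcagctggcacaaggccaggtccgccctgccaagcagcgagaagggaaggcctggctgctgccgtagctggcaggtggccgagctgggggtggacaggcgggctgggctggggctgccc
Per3: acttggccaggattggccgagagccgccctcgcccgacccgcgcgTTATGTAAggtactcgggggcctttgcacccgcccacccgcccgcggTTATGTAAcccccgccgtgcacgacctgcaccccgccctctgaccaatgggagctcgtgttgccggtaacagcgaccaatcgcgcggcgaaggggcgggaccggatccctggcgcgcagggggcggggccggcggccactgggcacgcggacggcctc
The E-box of Per1 begins 166 bases before the start and that of Tef 127 bases before it, and Per3 has 2 D-boxes, the nearer one 158 bases before the start. Tef itself was at 376, 315, 282 and 243 CPM in saline against 419, 391, 346 and 393 CPM in young serum (0.36, groups overlapping), and Per3 at 11.8, 13.5, 16.5 and 8.75 CPM against 20.7, 23.1, 17.4 and 21.5 CPM.

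Glucocorticoid-responsive genes, which share Per1 with the clock list, counted 3 higher and 1 lower of 20, with a median of 0.06. Tsc22d3, for the glucocorticoid-induced leucine zipper GILZ, was at 173, 153, 179 and 182 CPM in saline against 214, 227, 214 and 203 CPM in young serum (0.32), and the transcription factor Klf9 differed by 0.54. Immediate early genes, which mark recent stimulation, had a median of 0.02, and Junb, which overlaps exons of Prdx2 on the other strand, was the 1 of 21 lower without overlap (-0.59).

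Satellite cell and myogenic genes counted 4 higher and 0 lower of 19, with a median of 0.24: Pax7, Ncam1, Mef2c and Mef2d. Pax7, the transcription factor that marks satellite cells, was at 0.991, 1.44, 1.32 and 1.18 CPM in saline against 1.86, 2.03, 2.27 and 1.66 CPM in young serum (0.40 ± 0.16, adjusted p = 0.198 by limma). Mef2c was at 534, 343, 347 and 304 CPM against 626, 615, 549 and 593 CPM (0.67). In whole muscle, a different number of cells of a type and a different amount of RNA per cell cannot be told apart. The list median was 0.16 without saline replicates 4 and 6. With the trend removed it was 0.20, but 0 of the 19 were higher without overlap and 1 was lower.

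Replication and cell cycle genes had a median of -0.21, with 16 of 18 negative and 2, both GINS subunits, lower without overlap. Gins2, whose exons overlap those of Gse1 on the other strand, is 1 of the 2. The list median was -0.02 without saline replicates 4 and 6. Among senescence genes and inhibitors of cyclin-dependent kinases, Rbl2 was higher (0.52) and Hmgb1 (-0.36) and Cdkn1a, for p21 (-0.37), were lower without overlap, 1 and 2 of 16. Cdkn2a, which encodes the senescence markers p16INK4a and p19ARF, was below the filter and was compared by CPM. It stood at 1.63, 1.08, 0.857 and 0.503 CPM in saline against 0.0765, 0.412, 0.104 and 0.0767 CPM in young serum, so the groups did not overlap. Of the 5292 genes below the filter, 96 were higher and 165 lower without overlap, so Cdkn2a was far from alone in this. For Cdkn2a the two-sided exact permutation p was 0.0286, the smallest that 70 assignments allow, and 0.0858 after Benjamini-Hochberg adjustment over the 3 genes compared this way. The other genes so compared, Kl (klotho, a protein whose loss brings on early ageing in mice; exact permutation p = 0.971) and the stress cytokine Gdf15 (exact permutation p = 0.543), had overlapping groups.

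Spliceosome genes counted 2 higher and 7 lower of 39, with a median of -0.23, and 1 and 9 with the trend removed (median -0.17). The median was -0.09 without saline replicates 4 and 6. Snrpb, a core Sm protein, was at 125, 141, 150.4 and 147 CPM in saline against 109, 103, 115 and 98.0 CPM in young serum (-0.40 ± 0.09), and Snrpc (-0.53) and Lsm4 (-0.54) followed, while the helicase Snrnp200 differed by 0.59. Of 13 muscle splicing regulators 2 were higher: Rbm20, which controls titin splicing, at 51.1, 45.5, 36.7 and 30.1 CPM in saline against 63.8, 58.9, 61.6 and 77.5 CPM in young serum (0.69), and Qk (0.42). Long noncoding RNAs gave 0 and 0 of 20; Malat1 ranged from 49.5 to 426 CPM in saline and from 175 to 389.6 CPM in young serum (0.43).

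Chromatin modifiers, whose median exon length was 8.98 kb, counted 5 higher and 0 lower of 44, with a median of 0.33. The acetyltransferase Ep300 was at 36.6, 24.6, 39.3 and 17.4 CPM in saline against 52.5, 60.1, 43.5 and 55.7 CPM in young serum (0.88), and the class IIa deacetylases Hdac5 and Hdac9 differed by 0.40 and 0.69. With the trend removed the median was 0.09, with 4 higher and 2 lower. Zinc finger genes of the Zfp family counted 21 higher and 3 lower of 297 (median 0.13), and 30 and 4 with the trend removed. Zfp106, loss of which causes neuromuscular degeneration in mice, differed by 0.80, Zfp652 by 0.75 and Zfp521 by 0.63.

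Tendon markers had the highest median of the lists with 10 or more tested members, 0.67 (0.51 with the trend removed and 0.64 without saline replicates 4 and 6), with 3 higher and 0 lower of 11 and 10 positive. Col22a1, a collagen of the myotendinous junction, was at 13.6, 8.88, 10.4 and 10.3 CPM in saline against 18.9, 15.9, 19.2 and 16.3 CPM in young serum (0.67 ± 0.15). Chad, a cartilage and tendon matrix protein, was at 1.86, 2.61, 0.970 and 6.18 CPM against 13.3, 10.1, 6.39 and 4.598 CPM (1.37, crossing at 1 library in each group), Fmod differed by 0.84, Cilp2 by 0.63 and Col12a1 by 0.74. The summed level of the markers in the table ran from 109 to 221 CPM in saline and from 186 to 293 CPM in young serum, and none was at 0 in all 8 libraries; the share of tendon in each sample was not measured otherwise, and its part in the result was not tested. The interstitial collagens Col1a1 (0.41) and Col3a1 (0.10) had overlapping groups.

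Vascular, fat, blood and immune markers had mostly negative differences, and the list medians given here lay closer to 0 without saline replicates 4 and 6. Endothelial markers counted 0 higher and 4 lower of 19 (median -0.22, and -0.07 without those libraries): Cldn5, a tight junction protein of vessels, was at 13.1, 16.6, 52.2 and 22.01 CPM in saline against 12.2, 8.51, 10.3 and 9.35 CPM in young serum (-1.09), Sox18 differed by -0.60 and Esam by -0.34. Of 17 adipocyte genes, 17 were negative with a median of -1.15, but 2 were lower without overlap and the median was 0.04 without saline replicates 4 and 6. Their summed level was 13716 CPM in the highest saline library, 1976 CPM in the lowest, and 1629 to 2599 CPM in young serum. Adipoq, for adiponectin, was at 319.8 CPM in saline replicate 4, 8.76 to 28.8 CPM in the rest of saline and 2.89 to 22 CPM in young serum.

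Macrophage genes counted 0 higher and 4 lower of 18, with a median of -0.80 and -0.38 without saline replicates 4 and 6. Of the 4, Ms4a7 reached 1 CPM in saline libraries only, so its lower value in young serum was built into its choice and is not counted as support. Fcer1g differed by -1.15, and the lysosomal marker Cd68 by -0.53 with overlap. MHC class II genes, used to present antigen, had a median of -1.30, with 6 of 6 negative and 0 lower without overlap, and -0.45 without the 2 libraries. Ighm, the constant region of IgM, was at 350.1, 363, 326 and 189 CPM in saline against 183, 129, 134 and 169.9 CPM in young serum, a difference of -0.96 ± 0.20 that was -1.22 without saline replicates 4 and 6. Of 5 B and plasma cell genes tested, all 5 were negative and Ighm was the 1 lower without overlap. Their median was -0.96, and -0.34 without saline replicates 4 and 6. Cd3e, a T cell receptor subunit, differed by -0.97, the interferon-induced Bst2 by -0.84 and the chemokines Cxcl16 and Ccl6 by -0.91 and -0.99, all without overlap and with saline replicate 4 highest in each. Of 31 interferon response genes, 21 were negative and 10 positive, with 0 higher and 1 lower without overlap. The interferon median was -0.23, and 0.01 without saline replicates 4 and 6. Of 40 chemokine and interleukin genes, 32 were negative and 8 positive, with 1 higher and 3 lower without overlap. The chemokine median was -0.31, and -0.06 without saline replicates 4 and 6. Cd3e was the only 1 of 14 T and NK cell genes with deposited values to pass the filter, and it was at -0.39 without saline replicates 4 and 6. Of 12 neutrophil genes, 6 were in the table used here, and those 6 were below the filter.

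Red cell genes gave 6 negative of 6, with a median of -1.17, and -0.60 without saline replicates 4 and 6. The alpha globin gene Hba-a1 was at 80.7, 55.6, 129 and 155 CPM in saline against 18.6, 53.0, 65.4 and 44.4 CPM in young serum (-1.22, crossing at saline replicate 3 and young serum replicate 3); its reads may be shared with the near-identical Hba-a2. Residual blood in the samples was not measured otherwise, and its part in the immune and red cell values was not tested.

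**Figure D4:**
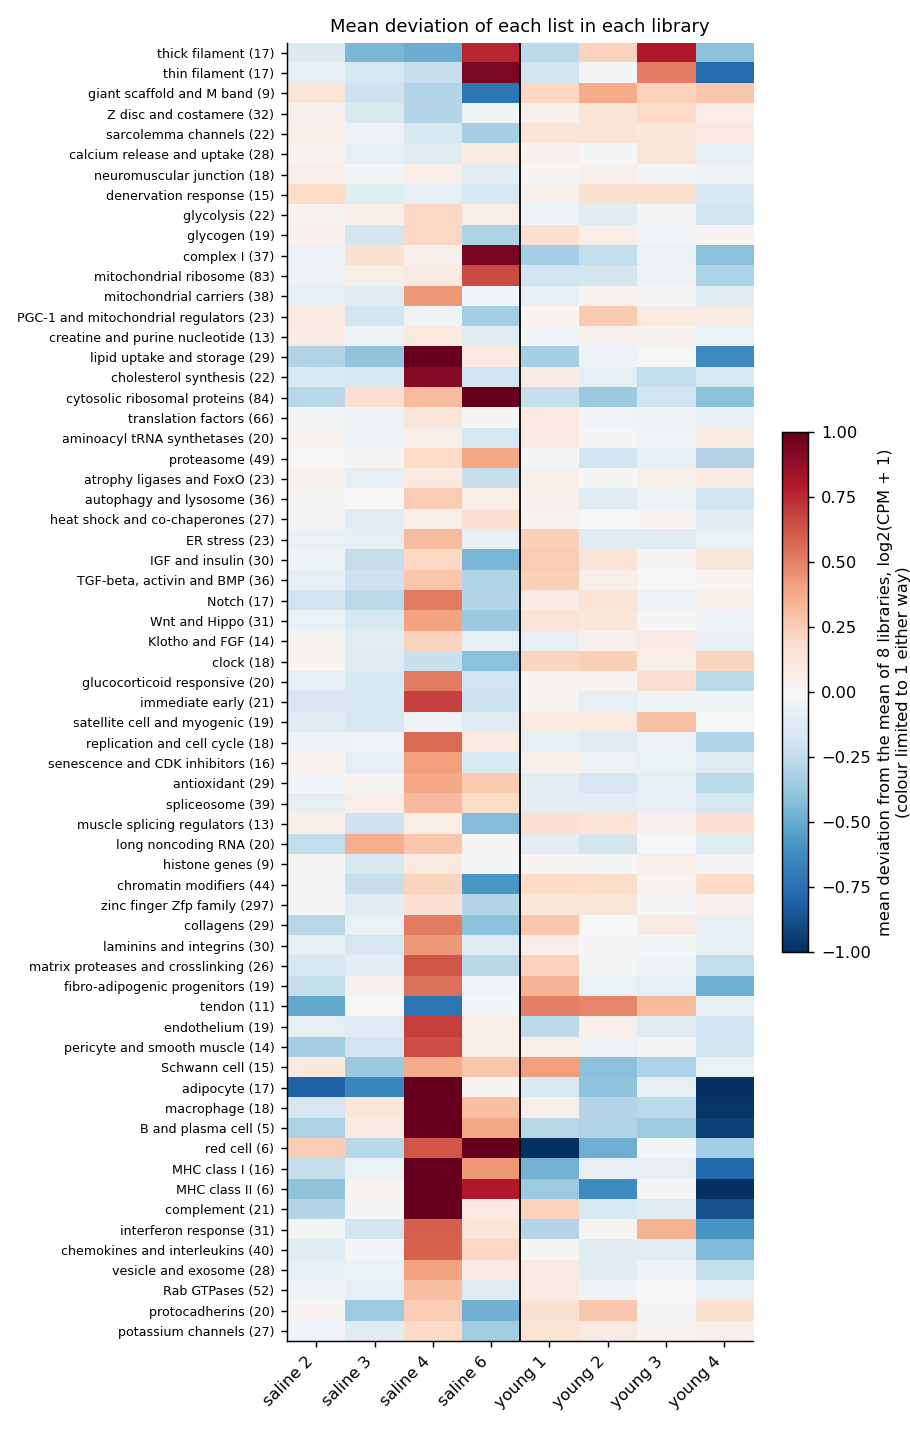
Colour gives the score of each of 64 gene lists (rows, tested members in brackets) in each library (columns): the mean log2(CPM + 1) deviation from the mean of 8 libraries, red above and blue below, with colours limited to 1 either way. Saline replicate 4 is the highest column for 41 lists and saline replicate 6 the lowest for 24, and the scores of 9 lists do not overlap between the groups.

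Across the 64 lists with 5 or more tested members, the scores of 9 did not overlap between the groups. Those higher in young serum were the giant scaffold, Z disc, sarcolemma channel, clock and satellite cell lists, and those lower were glycolysis, proteasome, replication and antioxidant. The nearest young serum and saline scores were 0.05 and 0.04 for the Z disc, 0.06 and 0.03 for the clock, and -0.06 and -0.04 for replication. Beside these 9 of 64 lists stood 1591 of 12977 single genes without overlap in either direction. No test was made over lists, and the scores were not recomputed with the length trend removed. With the length trend removed, genes without overlap numbered 0 higher and 1 lower for macrophage, 1 and 1 for calcium release and uptake, 1 and 1 for glucocorticoid-responsive, 6 and 2 for translation factors and 0 and 1 for replication. The muscle splicing median was 0.27 as analysed and 0.06 with the trend removed, and that of senescence genes was -0.20 and -0.03 (-0.02 without saline replicates 4 and 6). Median differences of the lists as analysed, with the length trend removed and without saline replicates 4 and 6 are plotted together for lists with 10 or more tested members. Removing the trend brought the chromatin median closer to 0, as it did that of the giant scaffold list, too small for the plot. Leaving out the 2 libraries brought the adipocyte, macrophage and MHC class I medians closer to 0, as it did that of MHC class II, also too small. Complex I moved alike in both settings, to -0.30 and -0.31.

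**Figure D5:**
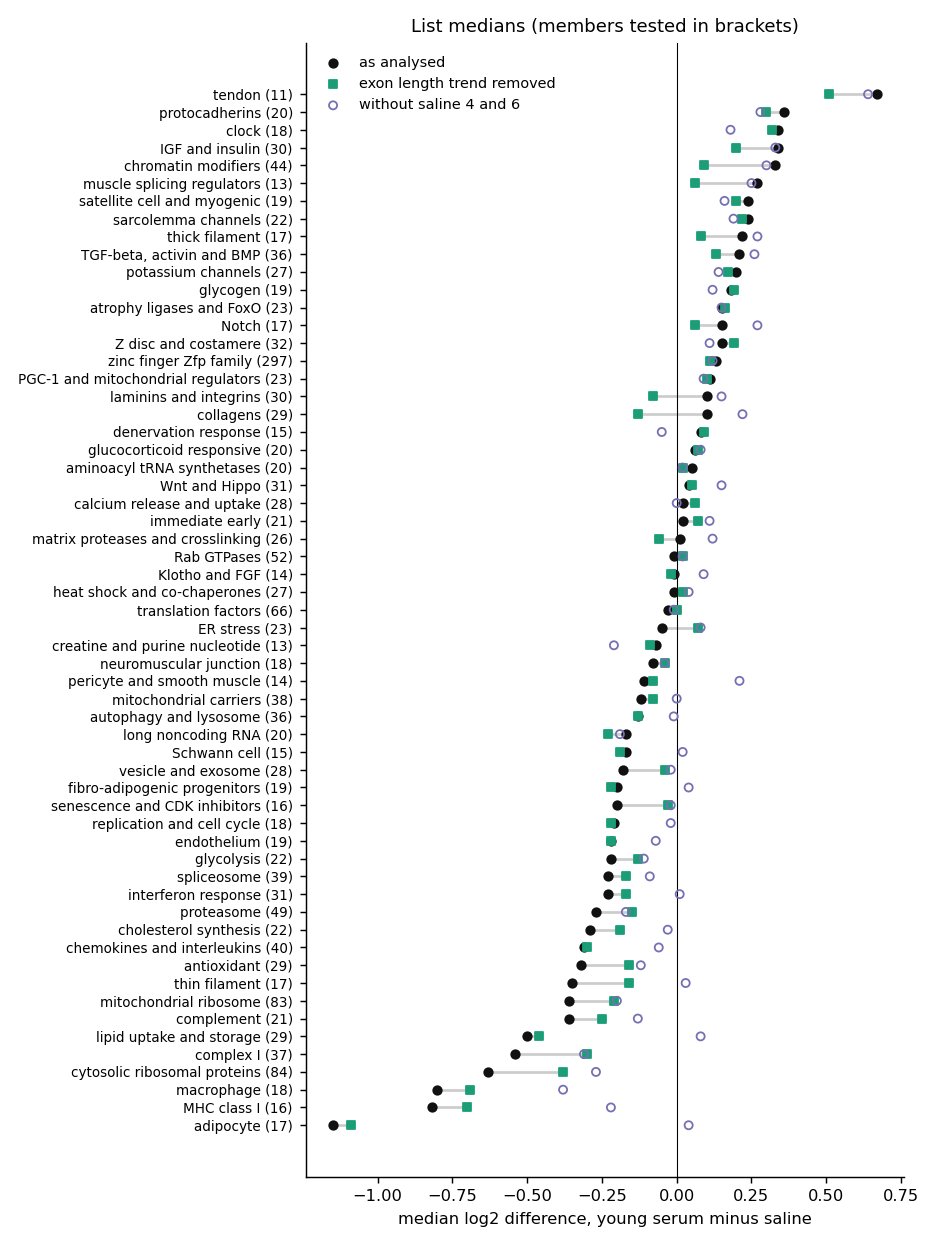
Median log2 difference, young serum minus saline (x axis), of each list with 10 or more tested members (y axis), as analysed (black), with the exon length trend removed (green squares) and without saline replicates 4 and 6 (open circles). Tendon is at the top at 0.67 and adipocyte at the bottom at -1.15, where the open circle lies at 0.04.

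The values of genes named above in mice given EV-depleted serum rest on the same saline libraries and are set here only side by side. Nrap was at 1614, 1650 and 1946 CPM in those 3 libraries, as against 1545 to 1762 CPM with intact serum. Tob2 was at 64.7, 61.3 and 75.1 CPM, Per2 at 9.59, 7.21 and 12.9 CPM and Mylk4 at 1125, 1188 and 2304 CPM. Gins2 was at 6.44, 9.63 and 3.02 CPM and Ighm at 120.3, 145 and 137 CPM.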

How the data were processed

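RNA of the tibialis anterior was sequenced in 11 libraries. The authors deposited CPM and TPM tables; per the submitters' processing notes, FastQC, STAR and DESeq2 were used with build mm10, and no versions or strand setting are given. The deposited CPM sum to 1000000 per library, and the deposited TPM equal CPM divided by the genomic span, introns included. Depth, from the steps of low CPM, was 36400000 to 42200000 reads, but only 75.6 to 79.0% of values came out whole within 0.1 reads, so no count model was used.

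Genes reaching 1 CPM in 3 or more of the 8 libraries were analysed as log2(CPM + 1) with limma 3.58.1 in R 4.3.3 (trended eBayes, 3 groups, Benjamini-Hochberg adjustment over 12977 genes, threshold 0.05). Exon lengths came from GENCODE M21 (12762 genes matched) and promoters from RefSeq, GRCm38.p6. Exons of further genes named above, among them Tnnc2, Usp34, Tsc2 and Zfp652, overlap those of other genes, and how shared reads were counted is not given. The genes named come from the 12 largest differences and 8 smallest p-values in each direction among genes with separate groups, an unadjusted p under 0.05 and a mean of at least 5 CPM (predicted genes are only counted), up to 4 genes per list by the limma statistic, and a set of fixed genes; 163 of the 297 genes so chosen are described, the rest are not reported here, and exceptions are stated. The members and lists were chosen with earlier results of these data known. The scripts were tested on simulated data. Same-numbered samples were not treated as pairs. Alternatives covered scaling, filters, pseudocounts, weights and left-out libraries; removal of the exon length trend was chosen after seeing the data.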

Additional observations from a re-analysis of the deposited data

Results flagged for a closer look

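In 34 of 358 groups of 4 values of the genes named above, 1 library lay further from the other 3 than chance allows in about 1 of 20 groups. Saline replicate 6 accounted for 10 of them. It was far above the other saline libraries for Cops9 (293.9 CPM), Eef1b2 (313.3), Iqcg (38.47), Mrps18c (25.31), Myh7 (944.1), Ndufb7 (287.1), Prdx2 (343.6), Rpl13a (2382) and Rpl22l1 (48.23), and below them for Eif4ebp2 (271.9 CPM). Saline replicate 4 accounted for 8. It was low for Chrna1 (15.32 CPM) and high for Adipoq (319.8 CPM), Cyp2e1 (379.2), Dnase2a (10.23), Fabp4 (1543), Igf1 (34.14), Retnla (68.38) and Tgfb1 (20.66). Saline replicate 2 was high for Musk (17.46 CPM) and Per2 (12.34), and saline replicate 3 for Ncam1 (3.592) and Tm7sf2 (7.655).

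The 12 in young serum were spread over the libraries. Replicate 1 was high for Igf1 (20.63 CPM) and Krt5 (0.102), and low for Esam (17.37) and Sox18 (11.21). Replicate 2 was high for Cdkn2a (0.412 CPM) and Qk (213.4), and low for Mylk2 (848.8). Replicate 3 was low for Adcy9 (29.2 CPM), Apc (35.82) and Tsc1 (49.98), and high for Iqcg (6.662). Replicate 4 was low for Tgfb1 (5.047 CPM).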

How the results depend on the processing

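The 0 genes past an adjusted p of 0.05 became 3521 with array weights and 0 to 265 when 1 library was left out (265 without saline replicate 2, 1 without saline replicate 6). At an unadjusted p under 0.05, 2880 genes became 5489 with array weights, 1273 without saline replicates 4 and 6, 1207 with the length trend also removed, 1890 with the trend removed and saline replicate 6 left out, and 1625 to 4020 with 1 library left out. Genes higher without overlap (799) numbered 519 on TPM, 2101 without saline replicates 4 and 6, 1311 with the trend also removed, and 835 to 1865 with 1 library left out; genes lower (792) numbered 1439 and 829 to 2029 in the last 2 settings. Fewer libraries separate more easily by construction. Quantile normalisation gave 1087 higher and 720 lower. The gap of 0.63 between the longest and shortest bins was 0.27 on log2(TPM + 1), 0.42 with a pseudocount of 5 and 0.73 with a pseudocount of 0.1. The deposited TPM divide a gene by the same span in every library, so the TPM setting does not correct a length trend between libraries. The gap was 0.04, 0.0 and 0.01 with the trend removed from all libraries, without saline replicates 4 and 6, and without saline replicate 6. With 1 library left out it was 0.40 to 0.78.

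Same-numbered samples share only a number: their deviations correlated at 0.183, -0.163 and -0.278 for numbers 2, 3 and 4, and only number 2 correlated best with its own number. With the replicate block, 1969 genes had an unadjusted p under 0.05 (836 higher, 1133 lower).

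Of 174 genes, 10 changed direction in some setting; the causes were not tested. With array weights Fst stood at 0.06, Igf1 0.28, Malat1 -0.38, Ppargc1a -0.69 and Trim63 -0.19. With the replicate block Col3a1 stood at -0.35, Malat1 -0.03, Ppargc1a -0.07 and Trim63 -0.11. Without saline replicates 4 and 6, Adipoq stood at 0.24, Fst 0.19, Igf1 0.41, Ppargc1a -0.43 and Trim63 -0.19; with the trend also removed, Adipoq 0.39, Fst 0.13, Igf1 0.18, Malat1 -0.13, Ppargc1a -0.57, Tef -0.01, Trim63 -0.15 and Ttn -0.24. With the trend alone removed, Col3a1 stood at -0.13, Ppargc1a -0.02 and Ttn -0.03, and with saline replicate 6 also left out, Col3a1 -0.25, Malat1 -0.24, Ppargc1a -0.21 and Ttn -0.13. On TPM Ppargc1a was at -0.0008. With 1 library left out, Col3a1 reached -0.13 to 0.48, Fst -0.58 to 0.01, Igf1 -0.42 to 0.35, Malat1 -0.18 to 0.85, Myh7 -0.46 to 1.25, Ppargc1a -0.16 to 0.50 and Trim63 -0.04 to 0.20. These include Col3a1 without saline replicate 2 (-0.05), saline replicate 6 (-0.12), young serum replicate 1 (-0.13) and young serum replicate 3 (-0.03), and Myh7 without saline replicate 2 (-0.16), 3 (-0.22), 4 (-0.01) or young serum replicate 3 (-0.46).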
